A study of Rattus norvegicus with 8 samples.

Results

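The annexins are a family of proteins that bind phospholipid membranes when calcium is present. They were followed here in rat kidney on 8 single-colour Agilent arrays, 1 array per sample. The 9 genes Anxa1 to Anxa7, Anxa11 and Anxa13 were a given list, and their probes were those whose transcript accession mapped to these symbols. Each had 1 probe, so the family makes up 9 of 30367 probes and 9 of the 21416 genes or transcripts tested. The family was chosen with the signals of these same arrays in view, APL against Control, including the opposite direction of Anxa13. Its differences between the groups are therefore given as a description. No p-value of an annexin is given, and where annexins are counted past a threshold of the fit across all genes, the count describes the values that chose them.

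The APL group held 4 kidney samples of 10-week-old male SD rats (Sprague-Dawley, an outbred strain) after 4 weeks of APL at 150 mg/kg. The Control group held 4 kidney samples of male SD rats of the same age after 4 weeks of 0.5% methylcellulose, a vehicle. APL is read here as allopurinol, a xanthine oxidase inhibitor, which the series title names as the agent that produces the fibrosis. The title speaks of renal tubules and the tissue label of kidney, and no label says that each replicate was its own animal, so "kidneys" stands below for these samples and p-values measure the spread between these samples, which may be technical.

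Annexins share a core of repeats that each can hold calcium, and differ in the tail in front of it, which sets their partners. Anxa1 and Anxa2 bind the small EF-hand proteins S100a11 and S100a10 through that tail. Annexins act in membrane repair, vesicle traffic and the shaping of the actin cytoskeleton. In the kidney they are found in tubule epithelium as well as in vessels, stroma and leukocytes, with large differences between members.

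RefSeq promoter windows of the rat build GRCr8, 250 bases before to 50 after the gene start, were found for 7 of the 9 genes, all but Anxa6 and Anxa13. Windows are shown for the gene with the largest increase, for a gene with matches to 3 of the motifs searched, and for the gene whose groups overlapped. Capitals mark the matches on either strand.
Anxa1, chr1:227303683-227303982 (- strand): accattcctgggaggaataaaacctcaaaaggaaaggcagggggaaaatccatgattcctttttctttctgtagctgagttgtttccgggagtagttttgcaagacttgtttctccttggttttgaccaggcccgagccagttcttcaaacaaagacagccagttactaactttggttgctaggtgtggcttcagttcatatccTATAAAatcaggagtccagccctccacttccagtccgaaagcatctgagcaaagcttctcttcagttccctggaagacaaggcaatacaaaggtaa
Anxa2, chr8:78986002-78986301 (+ strand): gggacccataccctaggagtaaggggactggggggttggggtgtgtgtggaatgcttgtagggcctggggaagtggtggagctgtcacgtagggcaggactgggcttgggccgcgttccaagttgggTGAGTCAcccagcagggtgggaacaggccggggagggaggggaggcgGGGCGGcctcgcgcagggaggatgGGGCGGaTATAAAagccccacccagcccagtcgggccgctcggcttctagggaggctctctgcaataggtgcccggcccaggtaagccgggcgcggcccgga
Anxa11, chr16:1419484-1419783 (+ strand): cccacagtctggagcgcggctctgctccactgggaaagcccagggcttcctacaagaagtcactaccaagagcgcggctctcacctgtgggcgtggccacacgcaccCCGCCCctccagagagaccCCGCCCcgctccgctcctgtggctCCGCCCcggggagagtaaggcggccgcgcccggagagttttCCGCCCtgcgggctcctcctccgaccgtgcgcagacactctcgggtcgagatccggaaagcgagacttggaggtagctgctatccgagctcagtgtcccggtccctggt

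Anxa1 held 1 match to TATAAA, the letters of the TATA box, at base -46 from the start. Anxa2 held 1 match to TGANTCA (AP-1) at -123, 1 to TATAAA at -45 and 2 to GGGCGG (GC box). No other of the 7 windows held TATAAA, which 14.2% of all 33469 windows hold, and no other held TGANTCA, which 7.33% hold. Anxa11 held 4 matches to GGGCGG, which 33.1% of all windows hold. Anxa3 held 3 matches to it, Anxa4, Anxa5 and Anxa7 held 1 each, and Anxa1 held none. Neither TGACGTCA (CRE, in 1.83% of all windows) nor the palindromic HNF1 motif (in 0.00299%) was found in the 7 windows. These matches describe letters in the windows and nothing about a factor.

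Signals are given as scaled signal, the processed signal of a probe over the 75th percentile of its own array, so 1 stands for a signal at that percentile. The scale differs from probe to probe, so levels are compared between arrays and never between genes. The 75th percentile itself ran from 378 to 497 on the APL arrays and from 272 to 307 on the Control arrays. Probes well above background made up 79.9% to 81.9% of all probes on the APL arrays and 74% to 77.3% on the Control arrays, and no spot was saturated. Members were well above background on every array, except Anxa13.

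Of the 9 annexins, 7 were higher in APL kidneys, 1 was lower and 1 lay between, and in those 8 the 4 APL values did not overlap the 4 Control values. In the fit across all genes, 7 of 9 met the threshold of an adjusted p under 0.05 upward, where 11.9% of all genes tested did, and 1 of 9 met it downward, where 11.5% did. Groups that do not overlap were found for 14.0% of all genes with APL higher and for 15.9% with APL lower. Because the family was chosen on this contrast, nothing is read from these counts. The median log2 difference (APL minus Control) of the 9 genes was 3.69, and that of all genes tested was -0.03. Since the samples are bulk tissue, a change in the number of cells of a type and a change in RNA per cell cannot be told apart.

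**Figure D1:**
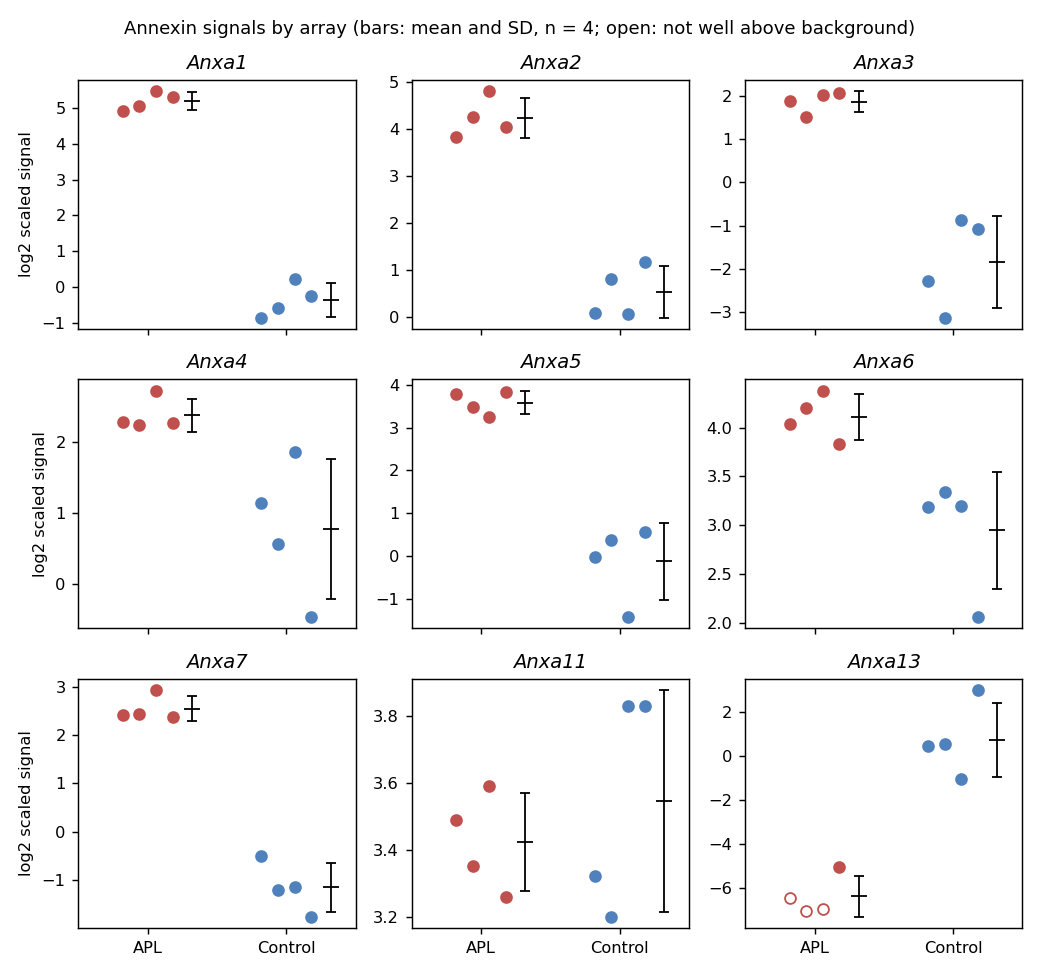
Log2 scaled signal of the 9 annexin probes on each array, APL left and Control right in each panel, points in replicate order. Black bars are mean and SD (n = 4), and open points are not well above background. The APL points lie above all Control points for 7 genes, below them for Anxa13 and among them for Anxa11.

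Anxa1, a substrate of the EGF receptor whose secreted form acts on formyl peptide receptors of leukocytes, had the largest increase of the family. Its scaled signal (probe A_43_P11614) was 30.3, 33.2, 44.3 and 39.6 in APL replicates 1 to 4, against 0.552, 0.671, 1.17 and 0.833 in Control replicates 1 to 4. Every APL kidney was at least 25.8-fold above the highest Control kidney. The log2 difference was 5.55 ± 0.28 (moderated standard error, n = 4 each), or 47.0-fold, and 0.957% of all genes tested had a larger difference in either direction. The arrays lay on 2 glass slides, each with 2 arrays of each group, and the difference was 5.70 on slide 1 and 5.41 on slide 2.

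Anxa2 forms a heterotetramer with S100a10 that links membranes to actin and binds plasminogen and its activator at the cell surface. Its scaled signal (probe A_64_P005576) was 14.3, 19.1, 28.1 and 16.4 in the APL kidneys, against 1.07, 1.75, 1.05 and 2.24 in the Control kidneys. The lowest APL kidney lay 6.38-fold above the highest Control kidney. This came to 3.70 ± 0.34 on the log2 scale, or 13.0-fold. The RefSeq table lists 8 pseudogenes named for Anxa2 and 4 named for Anxa7, and the part of such copies in the signals of these probes was not tested.

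Anxa3, known from neutrophil granules, had scaled signals of 3.69, 2.86, 4.04 and 4.17 in the APL kidneys (probe A_44_P325508). In the Control kidneys it had 0.208, 0.115, 0.546 and 0.472, with replicates 1 and 2 below replicates 3 and 4. The groups were apart by 5.23-fold at the closest pair. On the log2 scale the difference was 3.70 ± 0.49, and it was 4.40 on slide 1 and 3.01 on slide 2, which follows the lower Control values on slide 1.

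Anxa5 binds phosphatidylserine and is the reagent used to stain dying cells. Its scaled signal (probe A_44_P472994) was 13.8, 11.2, 9.43 and 14.3 in the APL kidneys, against 0.982, 1.31, 0.375 and 1.49 in the Control kidneys. Control replicate 3 was the lowest, and the closest pair of arrays across the groups differed by 6.34-fold. The log2 difference was 3.71 ± 0.44, or 13.1-fold.

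Anxa7, also called synexin, fuses granule membranes and is among the members with a long tail. Its scaled signal (probe A_44_P494242) was 5.34, 5.41, 7.61 and 5.20 in the APL kidneys, against 0.707, 0.432, 0.457 and 0.297 in the Control kidneys. No APL kidney was less than 7.35-fold above any Control kidney, and the log2 difference was 3.69 ± 0.29, or 12.9-fold. The differences of Anxa2, Anxa3, Anxa5 and Anxa7 thus lay between 3.69 and 3.71 in the reported processing, closer to each other than any of their standard errors. Under normexp, a model-based background correction, with 75th percentile scaling they lay further apart, at 3.32, 2.72, 3.20 and 2.93.

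Anxa4 and Anxa6 differed less and their groups lay close together. Anxa4, an annexin of epithelia, had scaled signals of 4.83, 4.68, 6.58 and 4.79 in the APL kidneys, against 2.20, 1.48, 3.62 and 0.721 in the Control kidneys (probe A_44_P465660). The highest Control kidney was 1.29-fold below the lowest APL kidney, and the Control values spanned 5.02-fold. Its log2 difference was 1.60 ± 0.46, or 3.03-fold, and 18.3% of all genes tested had a larger one.

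Anxa6, the family member with a doubled core, had scaled signals of 16.4, 18.4, 20.9 and 14.2 in the APL kidneys (probe A_44_P996073). The Control kidneys had 9.11, 10.1, 9.19 and 4.16, with replicate 4 well below the other three. The closest pair across the groups differed by 1.41-fold. The log2 difference was 1.17 ± 0.32, or 2.25-fold, with 27.2% of all genes further from 0, and it was 0.86 on slide 1 and 1.48 on slide 2. Without scaling between arrays it was 1.80. Both genes lost the threshold in the fit across all genes under some alternatives, Anxa4 under 4 of the 12 that use all arrays and under 7 of the 8 that leave 1 array out, and Anxa6 under 1 and 5. The 4 for Anxa4 include the fits with the slide as a block and with the replicate block. The exception for Anxa4 was the fit without Control replicate 3, and Anxa6 kept it without Control replicate 2, 3 or 4.

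Anxa11, a long-tailed member that tethers RNA granules to lysosomes and binds S100a6, was the gene whose groups overlapped. Its scaled signal (probe A_64_P070756) was 11.2, 10.2, 12.0 and 9.60 in the APL kidneys, against 10.0, 9.18, 14.2 and 14.2 in the Control kidneys. All APL values fell inside the Control range. The mean log2 difference was -0.12 ± 0.22, and it was 0.16 on slide 1 and -0.40 on slide 2. Its sign turned with quantile normalization (0.02), with normexp, a model-based background correction, and quantile normalization (0.00058) and without scaling between arrays (0.52).

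Anxa13 was the one member whose APL signals all lay below its Control signals. It is an annexin of intestinal and kidney epithelium that is anchored to membranes by a fatty acid on its tail, and one of its isoforms was tied to apical transport in dog kidney cells. Its scaled signal (probe A_44_P157134) was 0.0116, 0.00753, 0.00801 and 0.0301 in the APL kidneys, against 1.34, 1.47, 0.478 and 7.93 in the Control kidneys. Only APL replicate 4 was well above background, while all 4 Control arrays were. The highest APL value lay 15.9-fold below the lowest Control value.

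Before scaling, the median intensity of the Anxa13 spot was 48, 45, 44 and 53.5 on the APL arrays, over local backgrounds of 36, 36, 35 and 35. On the Control arrays it was 435, 413, 158 and 2340, over backgrounds of 38, 36, 36 and 35. The APL spots were thus close to their surroundings, so the size of the decrease rests on how background is removed. The log2 difference was -7.10 ± 0.84 as processed by the scanner software, -6.22 with the floor on scaled signal raised to 0.02, and -2.46 and -2.73 after normexp background correction with 75th percentile scaling and with quantile normalization. The direction was the same on slide 1 (-7.24) and slide 2 (-6.97). The Control kidneys themselves spanned 16.6-fold for this gene, more than for any other member.

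**Figure D2:**
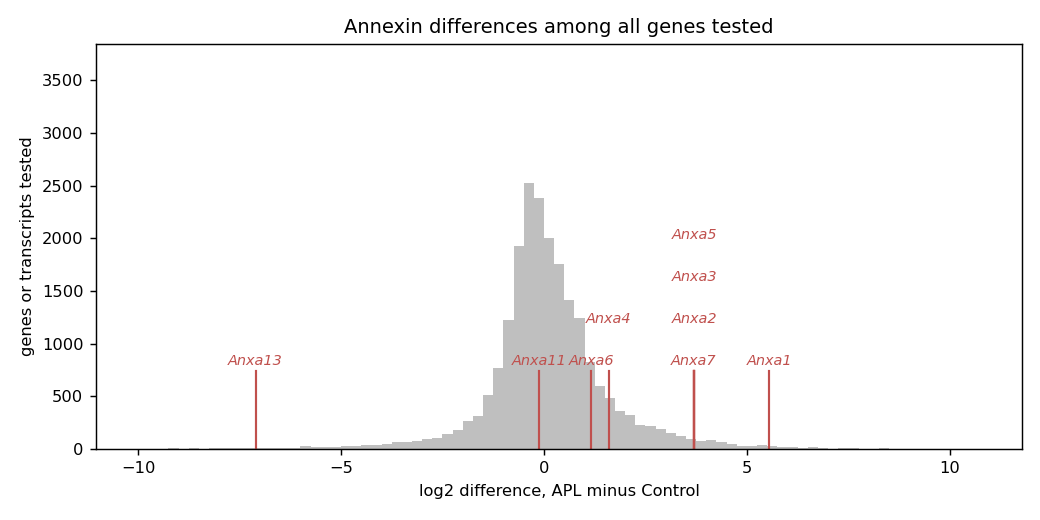
Histogram of the log2 difference, APL minus Control, of the 21416 genes or transcripts tested, in bins of 0.25, with red lines at the 9 annexins. Anxa13 stands in the left tail, Anxa11 near the centre, Anxa6 and Anxa4 on the right flank, and the other 5 in the right tail.

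The annexins varied less between the APL kidneys than between the Control kidneys. The SD of log2 scaled signal was smaller in APL than in Control for all 9 members, with medians of 0.247 in APL and 0.596 in Control. Over all genes it was smaller in APL for 55.8%, with medians of 0.443 and 0.506. This comparison of SDs was not tested and was not matched for signal level. The 7 members that were higher in APL kidneys had their lower signals in Control, and Anxa13 had its lower signals in APL. Among the APL arrays replicate 3 was the highest for 6 members and the lowest for Anxa5, and among the Control arrays replicate 4 was the highest for 4 members and the lowest for 3.

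Other annexins on the array gave little signal. Anxa8, an annexin of stratified epithelia, did not reach well above background on any of the 8 arrays. Anxa10, known from stomach and bladder lining, was so on no APL array and on 1 Control array, replicate 2. Neither was tested and no fold is given.

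Genes whose log2 signals, centred over the 8 arrays, lay closest to those of each annexin were sought among 12649 named genes by the root mean square difference. The centred values hold the difference between the groups, so genes with a like difference lie close, and no shared function is read from them. The log2 difference of Anxa2 was 3.70, and those of its nearest genes were 3.55, 3.68 and 3.70. For Anxa1 they were Epdr1 (0.297), Cyp3a9 (0.350) and Rnf180 (0.357). For Anxa2 they were Rtn2 (0.274), C4a (0.355) and Zfp57 (0.371), and for Anxa3 Sfnl1 (0.345), Psmb10 (0.437) and Sh3bp2 (0.457). Timp2 was closest to Anxa5 (0.208), followed by Rcn1 (0.302) and Bex2 (0.445). Apoe was closest to Anxa7 (0.275), followed by Pdlim4 (0.323) and Pcolce (0.336). The nearest to Anxa4 were Cirbp and Ep400 (0.334 each) and Lzts2 (0.338), and to Anxa6 Hacd3 (0.125), Nup205 (0.169) and Ncoa5 (0.178). Erp44 (0.0800), Ube2b (0.0984) and Cnpy3 (0.100) were nearest to Anxa11. For Anxa13 the nearest were Nat8b (1.06), Elfn1 (1.07) and Cpne4 (1.07), over values of which 3 were not well above background. These distances grow with the size of a gene's own variation and are not compared between annexins. Within the family the smallest distances were 0.454 for Anxa4 and Anxa6, with log2 differences of 1.60 and 1.17, and 0.554 for Anxa2 and Anxa5, with 3.70 and 3.71. The order of the pairs also follows the size of the variation, so it is not read as a result.

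Of 28 genes known to bind annexins or to work with them, 24 were on the array and tested. Among them 14 rose and 2 fell in APL kidneys, where 11.9% of all genes tested rose and 11.5% fell, and 8 were not called. Their median log2 difference was 1.52. On the Control arrays Trpv6 was never well above background, Cav1 was so on 1 array and Trpv5 on 2. The log2 difference of Trpv5 was 2.06 for the probe used and 5.29 for its other kept probe. Trpv6, which is among the 14, passed the detection filter through the APL arrays alone. Cav1, Trpv5, S100a4 and Mfge8, also among the 14, met it only with the APL arrays counted. Where detection on all arrays was required, 9 partners were called higher. The list was written with earlier results of these data known. All partner genes were tested with limma across the whole table, with adjusted p by Benjamini-Hochberg.

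Of the S100 partners, S100a10, S100a11 and S100a6 rose. S100a10, the partner of Anxa2, had scaled signals of 57.5, 74.3, 95.9 and 70.4 in APL kidneys, against 9.41, 6.57, 10.9 and 14.6 in Control kidneys, and rose by 2.88 ± 0.29 on the log2 scale (adjusted p = 0.000405). S100a11, the partner of Anxa1, had 80.0, 99.1, 64.2 and 128 in APL kidneys, against 4.29, 5.58, 2.96 and 2.72 in Control kidneys, and rose by 4.59 ± 0.32 (adjusted p = 6.74e-05). S100a6, which binds Anxa2 and Anxa11, had 19.8, 11.5, 25.6 and 28.9 in APL kidneys, against 0.260, 0.397, 0.220 and 0.192 in Control kidneys. It rose by 6.30 ± 0.36 (adjusted p = 3.05e-05). For these S100 genes no APL value overlapped a Control value.

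Sri and Pdcd6, partners of long-tailed annexins, differed from each other in their calls. Sri, sorcin, which binds Anxa7, rose by 1.77 ± 0.30 (adjusted p = 0.00490). Pdcd6, which binds Anxa7 and Anxa11, had a difference of 0.24 ± 0.27 (adjusted p = 0.561), with overlapping groups. The difference between the changes of Sri and Pdcd6 was not tested. Nedd4, a ubiquitin ligase that binds an Anxa13 isoform, rose by 1.05 ± 0.18 (adjusted p = 0.00530), with 4.21, 4.06, 3.81 and 4.77 in APL kidneys, against 1.96, 2.16, 2.28 and 1.77 in Control kidneys. Its difference was 1.68 without scaling, and under normexp with 75th percentile scaling it was 0.77 and not called (limma adjusted p = 0.166).

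Fpr1, a formyl peptide receptor on which Anxa1 acts, had a difference of -1.40 ± 0.61 (adjusted p = 0.133), which turned to 0.31 with normexp and the 75th percentile. Trpv6 and Cav1 were, with S100a6, the called partners with the largest increases, followed by S100a4 (5.09), Mfge8 (4.73) and Plat (4.30), and Plau and Trim72 were the 2 called lower. Trpv6, a calcium channel brought to the membrane by S100a10 and Anxa2, was well above background on all 4 APL arrays and on no Control array. It passed the detection filter only through the group where it is high, so its call is not read as a result. With each Control signal replaced by the lowest signal well above background on that array, the APL mean was 29.2-fold higher. That fold depends on the processing and is no minimum. The fitted log2 difference of Trpv6 was 6.07, against 4.55 with the floor at 0.02. It was 2.28 and 1.58 after normexp with the 75th percentile and with quantile normalization. Cav1, the caveolae protein, had a fitted log2 difference of 5.31 ± 0.84 (limma adjusted p = 0.00343), with 1 Control array well above background. Its scaled signal was 0.0743, 0.005, 0.005 and 0.0149 in Control replicates 1 to 4, where 0.005 is the floor. Cav1 met the detection filter through the APL arrays, where it is high, so its call is not read as a result. Its difference was 4.21 with the floor at 0.02. After normexp it was 1.98 with the 75th percentile and 1.43 with quantile normalization. Plau, the urokinase plasminogen activator, fell by 1.36 ± 0.37 (adjusted p = 0.0334) and lost its call under 4 of the 12 alternatives that use all arrays and under 6 of the 8 that leave 1 out, all but those without APL replicate 1 or Control replicate 1. Trim72, a membrane repair protein of muscle, fell by 1.22 ± 0.25 (adjusted p = 0.0113). Its call was lost without scaling (-0.58) and under both normexp settings, where it was 0.43 with the 75th percentile and -0.13 with quantile normalization.

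**Figure D3:**
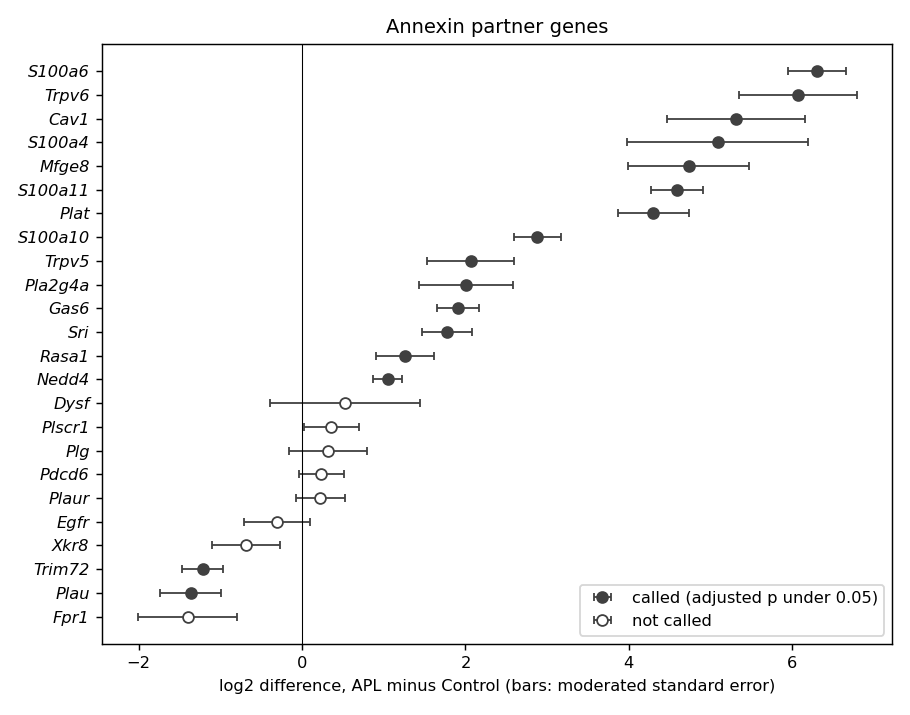
Log2 difference, APL minus Control, of the 24 annexin partner genes tested, with the moderated standard error (n = 4 each). Filled points passed an adjusted p under 0.05, 14 to the right of 0 and 2 to the left. The value of Trpv6 is a fitted one with no Control array well above background, and that of Cav1 is one with 1 such array.

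Some markers of kidney cells and of other cells that could carry annexins also differed between the groups. Of all genes tested, 11.9% were called higher and 11.5% lower. The lists hold 2 to 7 genes, so 1 call in a list is not read as a result about a cell type. A sum is carried by its brightest probes. All 7 proximal tubule, 2 thick limb and 3 podocyte genes were well above background on at least 1 array of each group. Over 7 proximal tubule genes the summed scaled signal ran from 39.0 to 47.3 in APL kidneys and from 384 to 454 in Control kidneys, with 5 called lower and 1 higher (Slc5a2). Over 5 genes of injured tubules it ran from 96.1 to 143 in APL kidneys and from 0.854 to 1.30 in Control kidneys, with 3 called higher and 0 lower. Of these only Krt20 (-0.51) had a log2 difference below 0. Over 6 macrophage genes it ran from 9.09 to 14.5 in APL kidneys and from 2.42 to 9.42 in Control kidneys, with 2 of 5 tested called higher and 0 lower, while Cd163 was well above background on no Control array. The log2 differences of Adgre1 (-0.34) and Csf1r (-0.24) were below 0, and those of the other macrophage genes were above it. Over 4 neutrophil genes it ran from 0.414 to 1.1 in APL kidneys and from 0.0569 to 0.0896 in Control kidneys, with 2 of 3 tested called higher and 0 lower. Elane, a defining neutrophil protease, was well above background on no APL array. S100a8 was so on no Control array and passed the detection filter through the APL arrays alone, so the neutrophil count is not read as a result.

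Endothelial markers ran the other way. Over 5 genes the sum was 0.358 to 0.619 in APL kidneys and 3.49 to 6.84 in Control kidneys, with 4 called lower and 0 higher. Emcn was well above background on 1 APL array and Tie1 on 3, and both were so on 4 Control arrays. Emcn met the detection filter through the Control arrays, where it is high, so the endothelial count is not read as a result. The sum over 4 fibroblast and smooth muscle genes was 12.1 to 31.3 in APL kidneys and 3.75 to 6.76 in Control kidneys, with 1 called higher and 0 lower. Of these only Dcn (-0.21) had a log2 difference below 0. The sum over 4 urothelium genes was 0.225 to 0.290 in APL kidneys and 0.254 to 0.332 in Control kidneys, with none called, and Upk2 was well above background on no array. Collecting duct and distal tubule markers gave 5.75 to 19.4 in APL kidneys and 5.16 to 9.90 in Control kidneys over 6 genes, with 1 called higher and 0 lower. Their log2 differences were mixed, with a median of -0.04. Calb1 (-1.615), Slc12a3 (-0.25) and Atp6v1b1 (-0.22) were below 0, and Aqp2 (1.93), Aqp3 (0.96) and Scnn1b (0.14) above. The thick limb sum was 1.44 to 18.3 in APL kidneys and 38.8 to 55.8 in Control kidneys over 2 genes, with 1 called lower, and the podocyte sum was 0.558 to 0.958 in APL kidneys and 1.78 to 3.0 in Control kidneys over 3 genes, with 1 called lower. The lymphocyte sum was 0.138 to 0.382 in APL kidneys and 0.0856 to 0.353 in Control kidneys over 3 genes, with none called, and Cd3e was well above background on no Control array. The part of these cell types in the annexin values was not tested.

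**Figure D4:**
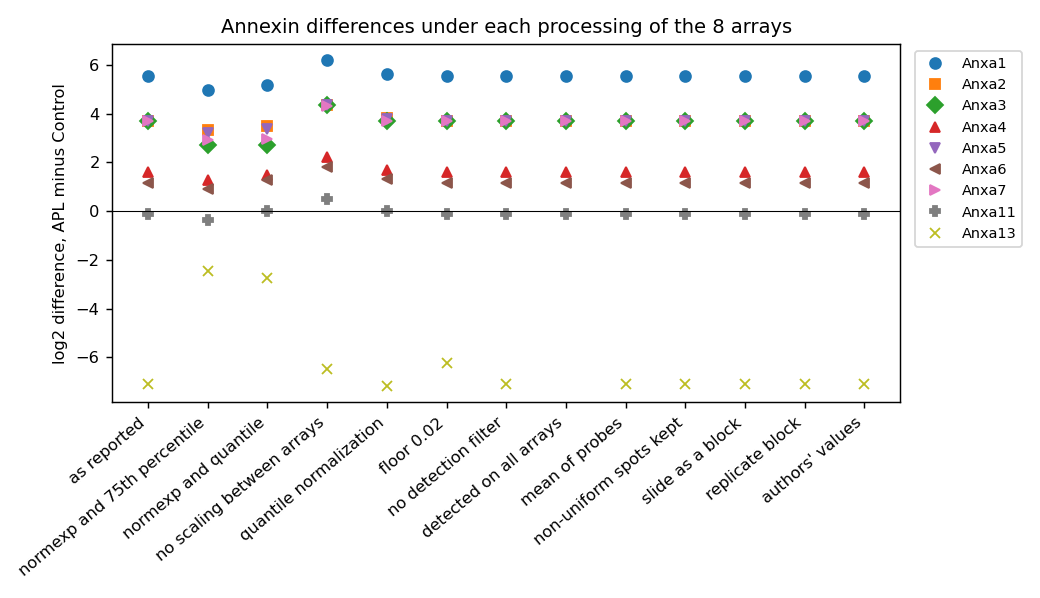
Log2 difference, APL minus Control, of each annexin (symbols) under the reported processing and 12 alternatives that use all 8 arrays. Anxa13 is below 0 throughout but nearer to it under the normexp settings and missing where detection on all arrays was required, Anxa11 lies on either side of 0, and the other 7 stay above 0.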

How the data were processed

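Total RNA of 8 rat kidney samples was labelled with Cy3, per the labels' protocols. The deposited scanner files were written by Agilent Feature Extraction 10.5.1.1, per the file headers, and hold linear intensity values per spot, namely a processed signal with background already removed and the median intensities of the spot and its local background. The authors' deposited table of the whole series holds log2 values. By comparison with the scanner values it holds log2 signals relative to the 75th percentile, centred for each probe, with correlations of 0.995 to 0.999 per array. Its column medians were -0.0714, 0.0190, -0.135 and -0.0434 for APL replicates 1 to 4 and 0.0334, 0.0654, 0.0759 and 0.00539 for Control replicates 1 to 4. It served as an alternative.

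Non-uniform spots were set to missing, spots of 1 probe were averaged, and a probe counted as well above background on an array where at least 0.5 of its spots were. Processed signals were expressed relative to the 75th percentile of each array, floored at 0.005 and taken to log2. Probes well above background on at least 4 arrays were kept (24339 of 30367). Symbols came from RefSeq's GRCr8 gene table by accession without versions, which named 18643 probes and left 11724 unnamed. A gene was represented by its kept probe with the highest mean. The test was limma's (lmFit and eBayes, version 3.58.1, R 4.3.3) on all 8 arrays and p-values were adjusted over 21416 genes or transcripts, after the fit was tested on simulated data. The annexins, the partner and marker lists and the tests were chosen with earlier results of these data known. The rule names all annexins found, 8 partners whatever their values, the 3 called partners with the largest difference in each direction, and the 3 genes nearest in pattern to each annexin. Fpr2, Ahnak, Prkca and Ano6 had no probe matched. The 2 slides each held 2 arrays of each group. Samples with the same replicate number did not deviate together (correlations of deviations across genes -0.0157 to 0.0482), so the replicate block is an alternative only. Protein features were not analysed here. The number of arrays limits the precision.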

Additional observations from a re-analysis of the deposited data

Results flagged for a closer look

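In 3 of 40 gene and group sets tested for an array that stands apart, the highest or lowest array lay further from the nearest other array than Dixon's critical value allows, which chance gives in about 1 of 20 sets. The scaled signal of Anxa4 was 6.58 in APL replicate 3, against 4.68 to 4.83 in the other APL kidneys. That of Anxa7 was 7.61 in APL replicate 3, against 5.20 to 5.41 in the other APL kidneys. That of Anxa6 was 4.16 in Control replicate 4, against 9.11 to 10.1 in the other Control kidneys.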

How the results depend on the processing

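Of the 9 annexins, 8 kept their direction under every alternative in which they were tested, and Anxa11 turned sign under 3, at 0.023 with quantile normalization, 0.00058 with normexp and quantile normalization and 0.52 without scaling. The number of annexins that met the threshold was 5 to 7 upward over all alternatives and 1 downward, except 0 downward with normexp and the 75th percentile and where detection on all arrays was required, which leaves Anxa13 untested. The whole table gave 2554 genes higher and 2472 lower, and 1040 and 973 with normexp and the 75th percentile, 5883 and 1143 without scaling (83.7% of calls higher against 50.8%, with the median log2 difference of all genes at 0.60, against 0.36 with normexp and the 75th percentile, -0.11 with quantile normalization and -0.03 as reported), and 1642 and 1616 with the replicate block. With 1 array left out the counts were 1606 to 2204 higher and 1777 to 2019 lower. The number of higher calls was lowest without APL replicate 2 (1623) or 4 (1606). Partners called higher numbered 11 to 13 with 1 array left out, and 9 where detection on all arrays was required. Partners called lower numbered 1 to 2 with 1 array left out. They numbered 1 with normexp and the 75th percentile, with quantile normalization and with the replicate block, and 0 with normexp and quantile normalization and without scaling. Without Control replicate 2, 3 or 4 or APL replicate 2, 3 or 4 Plau lost its call, as it did with the replicate block (adjusted p = 0.0956), and its highest adjusted p was 0.172, without scaling. Trim72 turned to 0.43 and Fpr1 to 0.31 with normexp and the 75th percentile. The cause of these shifts was not tested. The replicate numbers are shared only as numbers. The normexp settings add an offset of 50 and so compress signals near background, such as Anxa13 in APL kidneys, where signal over background limits the size of a difference.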
